A study of Homo sapiens with 6 samples.

Results

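The S100 genes and the annexin genes encode families of calcium-binding proteins that meet in the cell. S100 proteins are small EF-hand proteins that dimerize and, on binding calcium, expose a surface for partner proteins; S100A8 and S100A9 are stored in neutrophils and monocytes and are released as danger signals that act on TLR4 and AGER. Annexins bind acidic phospholipids in the presence of calcium and serve in membrane repair, endocytosis and the clearance of dying cells, and ANXA2 with S100A10, and ANXA1 with S100A11, are known complexes between the families. Members were all rows of the deposited count table whose symbol was S100 followed by A, B, G, P or Z with or without a number, or ANXA followed by a number. This gave 31 of 61267 genes, of which 19 were S100 genes and 12 were annexin genes.

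RNA was sequenced from the THP-1 line, which derives from a human monocytic leukemia; all cells were given 100 ng/ml of the phorbol ester PMA for 48 h, which makes them attach and take on macrophage features. There were 3 libraries labelled KD and 3 labelled NC. The labels name no target for KD, and METTL1, the tRNA m7G methyltransferase in the series title, had 567, 528 and 524 counts in the KD libraries against 596, 653 and 642 in the NC libraries. The KD over NC log2 fold change of METTL1 was -0.10 (SE 0.076, edgeR quasi-likelihood test, adjusted p = 0.216) and, scaled by library size only, -0.29 (adjusted p = 0.00249). The agent and method behind KD are not stated either. Separate cultures are not stated for the libraries of a group, so each p-value below reflects only the spread among these libraries, possibly a technical one.

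The libraries held 41547814 to 42608884 counts in KD and 37628972 to 42970216 in NC. The 10 macrophage markers checked (among them CD14, SPI1, ITGB2 and CSF1R) were all detected, and their summed level was 2419 to 2545 CPM (counts scaled to a common library total, here by library size) in KD and 1345 to 1447 CPM in NC. The groups also differed in RNA that THP-1 cells are not known for. All 14 listed genes of an embryonic kidney and neural type were lower in KD, summing to 15.3 to 16.8 CPM in KD and 2587 to 2916 CPM in NC. Of these, LIN28B, ID4, POU3F3, MAGED4B, ZCCHC12 and GALNT13 had no count in KD, and none was at 0 in NC. Of 9 epithelial markers 7 were lower and 0 higher, with sums of 14.5 to 15.6 CPM in KD and 674 to 697.5 CPM in NC. Fibroblast and smooth muscle markers summed to 2.38 to 2.89 CPM in KD and 8.21 to 9.06 CPM in NC, and T, NK and B cell markers to at most 15.4 CPM in KD and 6.56 CPM in NC. The part of these differences in the results was not tested; in bulk RNA, fewer cells of a type and less RNA per cell cannot be told apart. Differences of members and of the partner genes named below are therefore given on a pair of scales. The scale of all genes uses TMM normalization. The leukocyte-gene scale uses factors from 60 leukocyte-restricted genes alone. All 60 lay above 0 on the scale of all genes, with a median log2 fold change of 1.20 there. METTL1 was at -1.32 on the leukocyte-gene scale.

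Most abundant members of both families had more RNA in KD than in NC relative to all genes, a difference mostly absent on the leukocyte-gene scale. A total of 24 members passed the filter on low counts. Of 14 tested S100 genes 9 were higher and 2 lower (edgeR, adjusted p under 0.05), against 1 higher and 5 lower when levelled on leukocyte genes. Of 10 tested annexin genes 6 were higher and 3 lower, against 1 higher and 8 lower when levelled on leukocyte genes. Of all 21905 tested genes 36.2% were called higher and 40.3% lower, 76.5% in either direction, and on the leukocyte-gene scale 3.34% higher and 83.7% lower, 87.1% in either direction. With library sizes alone 9 S100 genes were higher and 2 lower and 6 annexins higher and 4 lower, where 75.7% of all tested genes were called, 28.4% higher and 47.3% lower. With DESeq2 the S100 genes were 9 higher and 2 lower and the annexins 6 higher and 3 lower, where 73.4% of all tested genes were called, 34.6% higher and 38.8% lower. The median log2 fold change was 1.24 over the tested S100 genes and 0.68 over the tested annexin genes, against -0.05 over all tested genes, and on the leukocyte-gene scale 0.02, -0.54 and -1.27. A change of scale moves all genes together. The median S100 gene stood 1.28 above the median of all tested genes on both scales, and the median annexin gene 0.73 above it.

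As sums, the families took larger shares of all counts in KD, a measure set by library size and not by leukocyte genes. All S100 genes together took 0.0953%, 0.0926% and 0.101% of all counts in the KD libraries, against 0.0499%, 0.0549% and 0.0508% in the NC libraries. All annexin genes took 0.225%, 0.226% and 0.2365% in KD, against 0.120%, 0.130% and 0.121% in NC. In both families every KD library lay above every NC library. The plot of levels by library shows the tested members.

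**Figure D1:**
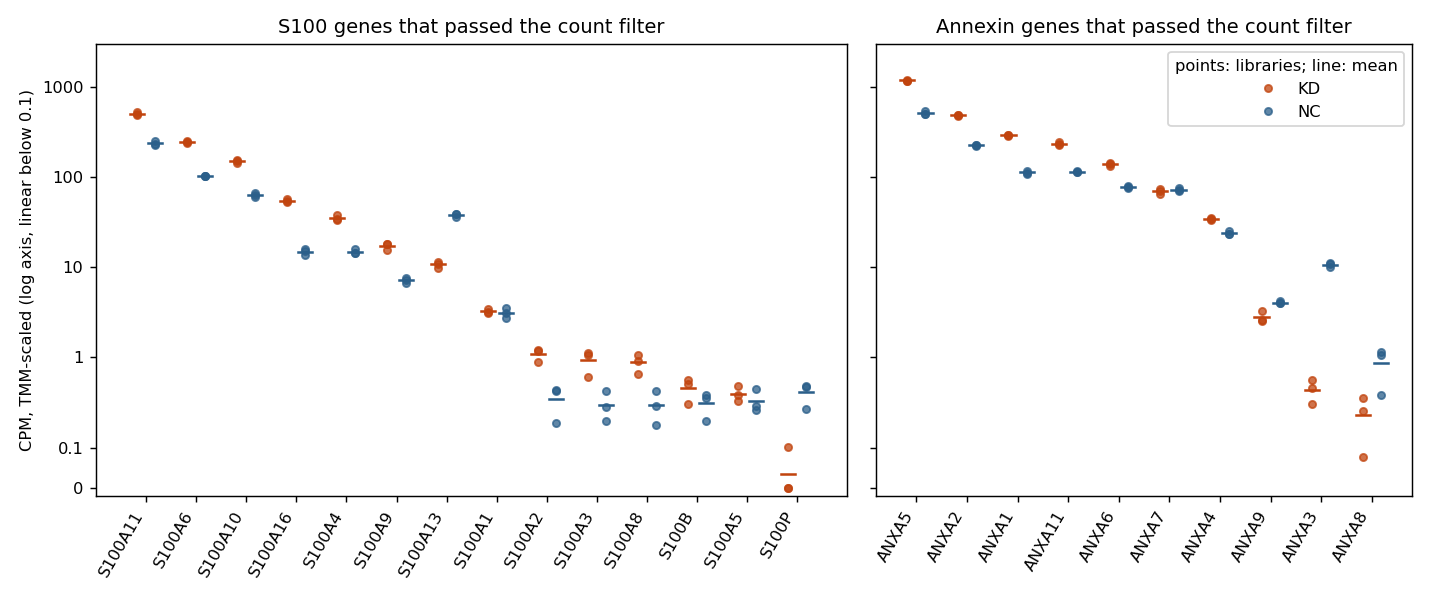
Level of each tested S100 gene (left) and annexin gene (right) in CPM with TMM scaling, on a log axis that is linear below 0.1; points are libraries, 3 KD (left of each pair) and 3 NC, and lines are group means. ANXA5 was the most abundant member by counts (1184 CPM in KD and 516 CPM in NC). S100A13, S100P, ANXA9, ANXA3 and ANXA8 were the tested members whose KD libraries lay below all NC libraries, as for 41.3% of all tested genes. On the leukocyte-gene scale more members lay below all NC libraries. The share of all tested genes that did so on that scale was not computed. By adjusted p, a different measure, 83.7% were called lower there.

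Of the S100 genes for released danger signals, S100A9 was higher in KD on the scale of all genes and not called on the leukocyte-gene scale, and S100A8 and S100A12 had few counts. S100A9, a subunit of calprotectin, had 18.2, 15.6 and 18.4 CPM in KD, against 7.68, 6.76 and 7.24 CPM in NC. Its groups did not overlap, as for 36.7% of all tested genes with KD above NC, and it rose 2.41-fold (log2 fold change 1.27, SE 0.087, edgeR adjusted p = 1.53e-12). On the leukocyte-gene scale its log2 fold change was 0.05 (adjusted p = 0.639). S100A8, the partner of S100A9 in calprotectin, had 36, 26 and 42 counts in KD and 18, 12 and 8 in NC. These few counts put it at 0.881 ± 0.203 CPM in KD and 0.299 ± 0.125 CPM in NC (SD, n = 3 each), with a log2 fold change of 1.56, an SE of 0.371 and an edgeR adjusted p of 5.44e-04; on the leukocyte-gene scale it was 0.34 (adjusted p = 0.393). S100A12, a related signal of neutrophils, had 12, 4 and 4 counts in KD and 2, 2 and 6 in NC, overlapping groups, and was not tested for low counts. Levels per kilobase of exon are in RPKM (CPM divided by exon length in kilobases). The length takes in all annotated exons, so RPKM compares genes only roughly. S100A9 was at 30.4 ± 2.69 RPKM in KD and 12.6 ± 0.809 RPKM in NC. S100A8 was at 0.988 ± 0.227 RPKM in KD and 0.335 ± 0.140 RPKM in NC. By this measure S100A9 was near S100A4, which was at 37.2 ± 2.86 RPKM in KD and 15.8 ± 0.956 RPKM in NC. Of the neutrophil and granule genes checked beside them, FCGR3B and CEACAM8 had no count in KD, and 2 of 4 tested were higher and 1 lower. Levelled on leukocyte genes, 0 were higher and 3 lower. Of all tested genes 36.2% were higher and 40.3% lower, and levelled on leukocyte genes 3.34% higher and 83.7% lower. The neutrophil and granule genes summed to 562 to 622 CPM in KD and 273 to 307 CPM in NC, nearly all of it MMP9. MMP9 was at 1.23 on the scale of all genes and at 0.006 on the leukocyte-gene scale (edgeR adjusted p = 0.904).

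S100A11, S100A6 and S100A10 were the most abundant S100 genes in both groups, by counts and per length. S100A11, which binds ANXA1, had 502, 486 and 523 CPM in KD, against 228, 254 and 234 CPM in NC. All KD libraries were higher, as for 36.7% of all tested genes. S100A11 rose 2.11-fold (log2 fold change 1.08, SE 0.046, edgeR adjusted p = 8.47e-17), but was -0.14 on the leukocyte-gene scale (adjusted p = 0.00753). S100A6, known as calcyclin, had 248, 242 and 255 CPM in KD, against 103, 103 and 103 CPM in NC. The NC libraries hardly differed from each other, and S100A6 rose 2.41-fold (log2 fold change 1.27, SE 0.040, edgeR adjusted p = 2.40e-19), with 0.05 on the leukocyte-gene scale (adjusted p = 0.296). S100A10, whose EF-hands no longer bind calcium and which pairs with ANXA2, had 155, 143 and 151 CPM in KD, against 60.2, 66.1 and 63.7 CPM in NC. It rose without overlap of the groups (log2 fold change 1.24, SE 0.045, edgeR adjusted p = 3.46e-18), with 0.02 on the leukocyte-gene scale (adjusted p = 0.695). S100A4, which binds non-muscle myosin and is associated with cell motility, had 34.0, 33.3 and 38.3 CPM in KD, against 14.5, 16.03 and 14.5 CPM in NC. It rose as well (log2 fold change 1.23, SE 0.067, edgeR adjusted p = 1.43e-14), with 0.01 on the leukocyte-gene scale (adjusted p = 0.861). These 4 genes lay within 0.13 of the median of the leukocyte-restricted genes, from 0.13 below it for S100A11 to 0.06 above it for S100A6.

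S100A16, a broadly expressed member, rose on both scales. It had 57.8, 52.7 and 54.2 CPM in KD, against 15.8, 13.9 and 15.2 CPM in NC. The KD libraries lay well above the NC libraries, and the gene rose 3.67-fold (log2 fold change 1.88, SE 0.060, edgeR adjusted p = 2.72e-19). It was the S100 gene called higher on the leukocyte-gene scale (0.65, SE 0.063, adjusted p = 8.28e-10). S100A2 and S100A3, known from epidermis and from hair, were near 1 CPM in KD. S100A2 had 35, 46 and 48 counts in KD and 8, 18 and 19 in NC, and rose (log2 fold change 1.63, SE 0.338, edgeR adjusted p = 1.22e-04). S100A3 had 24, 42 and 44 counts in KD and 12, 8 and 19 in NC, and rose (log2 fold change 1.61, SE 0.370, edgeR adjusted p = 3.79e-04). On the leukocyte-gene scale S100A2 was 0.42 (adjusted p = 0.253) and S100A3 was 0.40 (adjusted p = 0.323). Of 8 keratinocyte markers 3 were tested, of which 2 were higher and 1 lower; levelled on leukocyte genes, 0 were higher and 2 lower. KRT5, KRT14 and DSG3 had no count in KD and at most 2 counts in an NC library, and the sum of the list was 6.50 to 6.68 CPM in KD and 5.66 to 6.37 CPM in NC.

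S100A13 and S100P went the other way. S100A13, a partner in the release of FGF1 and IL1A from cells, had 10.9, 9.95 and 11.5 CPM in KD, against 36.4, 39.0 and 39.4 CPM in NC. The KD libraries were all far below the NC libraries, and the gene was 3.55-fold lower (log2 fold change -1.83, SE 0.067, edgeR adjusted p = 4.11e-18; -3.05 on the leukocyte-gene scale). Of its 2216 exon bases, 24.2% also lie in exons of ENSG00000271853 on the same strand, which was lower too (-0.97), and 10.6% in exons of S100A1 on the other strand; whether the authors counted by strand is unknown (not given in the sources used here), so reads there cannot be assigned. S100P, a placental member that binds AGER, had 0, 0 and 4 counts in KD, against 20, 11 and 22 in NC. The ratio of summed counts, NC over KD, scaled by effective library size, was 12.2 with a 95% exact binomial interval of 4.49 to 46.4. This interval covers counting error only and takes each count as independent. It is too narrow if low counts come in pairs. The fitted log2 fold change of S100P was -3.49 (SE 0.732, edgeR adjusted p = 1.42e-04), and -4.66 on the leukocyte-gene scale. It was -7.10 without KD replicate 3, which held the only KD counts of the gene. A fitted value with no KD count depends on the prior count. In the same libraries the 14 embryonic kidney and neural type genes summed to at most 16.8 CPM in KD and at least 2587 CPM in NC. Their part in the falls of S100A13 and S100P was not tested.

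The remaining S100 genes gave no call on the scale of all genes. S100A1, a muscle member, had 3.10, 3.21 and 3.42 CPM in KD, against 3.56, 3.12 and 2.77 CPM in NC, with a log2 fold change of 0.05 (SE 0.148, edgeR adjusted p = 0.791), and -1.18 on the leukocyte-gene scale (adjusted p = 9.32e-08). Of its 3030 exon bases 10.6% lie in exons of ENSG00000272030 and 7.76% in exons of S100A13, both on the other strand. S100A5 had 19, 15 and 13 counts in KD and 11, 12 and 20 in NC (log2 fold change 0.25, SE 0.406, edgeR adjusted p = 0.580), and S100B, a glial member, had 12, 22 and 20 counts in KD and 16, 8 and 16 in NC (0.55, SE 0.413, adjusted p = 0.227). Their groups overlapped. Glial and melanocyte markers summed to 6.23 to 7.02 CPM in KD and 5.72 to 6.24 CPM in NC. On the leukocyte-gene scale S100A5 was -0.96 (adjusted p = 0.0318) and S100B was -0.66 (adjusted p = 0.141). Not tested for low counts were S100A14, an epithelial member with 4, 8 and 8 counts in KD and 11, 9 and 15 in NC, S100Z with no count in KD and 2, 0 and 2 in NC, and S100G, the vitamin D-dependent calcium carrier of the intestine, with 1 count in KD and 0 in NC. S100A7, known as psoriasin, had no count in any library. At 3 independent counts per group, this allows up to 0.0254 CPM over the 3 KD libraries and 0.0234 CPM over the 3 NC libraries.

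Among the annexins, the most abundant by counts and per length was ANXA5, which binds phosphatidylserine on dying cells. It had 1171, 1169 and 1211 CPM in KD, against 499.7, 541 and 508 CPM in NC. All KD libraries were higher, as for 36.7% of all tested genes. ANXA5 rose 2.29-fold (log2 fold change 1.20, SE 0.044, edgeR adjusted p = 5.25e-18), with -0.02 on the leukocyte-gene scale (adjusted p = 0.653). ANXA1, the glucocorticoid-induced ligand of formyl peptide receptors that limits neutrophil entry, had 297, 294 and 289 CPM in KD, against 112, 118 and 109 CPM in NC. It had the largest rise of the annexins tested with all libraries in the fit, 2.59-fold (log2 fold change 1.37, SE 0.042, edgeR adjusted p = 1.19e-19), and was the annexin called higher on the leukocyte-gene scale (0.15, SE 0.044, adjusted p = 0.002504). ANXA2, the plasminogen-binding partner of S100A10, had 495, 481 and 487 CPM in KD, against 223, 227 and 228 CPM in NC. It rose 2.16-fold (log2 fold change 1.11, SE 0.040, edgeR adjusted p = 3.33e-18), but was -0.11 on the leukocyte-gene scale (adjusted p = 0.0196). Its processed copy ANXA2P2, with which it can share reads, held 40 to 50 counts in KD and 28 to 38 in NC, beside 18839 to 19475 counts of ANXA2 in KD and 9306 to 10311 in NC.

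ANXA11, ANXA6 and ANXA4 were higher in KD on the scale of all genes and lower on the leukocyte-gene scale, and ANXA7 was not called on the scale of all genes. ANXA11, which tethers RNA granules to lysosomes, had 226, 230.5 and 247 CPM in KD, against 113, 118 and 115 CPM in NC (log2 fold change 1.02, SE 0.043, edgeR adjusted p = 6.17e-17; -0.20 on the leukocyte-gene scale, adjusted p = 2.66e-04). ANXA6, an annexin with a duplicated core, had 139, 135 and 145 CPM in KD, against 78.3, 78.9 and 76.4 CPM in NC (log2 fold change 0.84, SE 0.041, edgeR adjusted p = 1.75e-15; -0.38 on the leukocyte-gene scale, adjusted p = 1.70e-08). ANXA4, an annexin of secretory epithelia, had 34.1, 35.7 and 33.8 CPM in KD, against 23.4, 25.2 and 23.7 CPM in NC (log2 fold change 0.52, SE 0.056, edgeR adjusted p = 7.28e-09; -0.70 on the leukocyte-gene scale, adjusted p = 2.69e-11). The KD libraries of these 3 genes lay above all NC libraries on the scale of all genes, as for 36.7% of all tested genes. They lay below all NC libraries on the leukocyte-gene scale. The share of all tested genes that did so on that scale was not computed. By adjusted p, a different measure, 83.7% were called lower there. ANXA7, a membrane fusion protein also called synexin, had 71.0, 65.4 and 73.6 CPM in KD, against 69.6, 71.5 and 76.2 CPM in NC. These groups overlapped, and its log2 fold change was -0.05 (SE 0.049, edgeR adjusted p = 0.365), -0.24 with library sizes alone (adjusted p = 1.60e-04) and -1.27 on the leukocyte-gene scale (adjusted p = 2.13e-17).

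ANXA3, ANXA8 and ANXA9 fell on both scales. ANXA3, an annexin of neutrophil granules, had 0.559, 0.459 and 0.304 CPM in KD, against 9.96, 10.98 and 11.2 CPM in NC. It had the largest difference of the tested members with all libraries in the fit, 24.1-fold lower in KD (log2 fold change -4.59, SE 0.168, edgeR adjusted p = 4.42e-18; -5.81 on the leukocyte-gene scale). The KD libraries held 22, 18 and 12 counts of it and the NC libraries 420, 450 and 504. ANXA8, an annexin of epithelia, had 10, 3 and 14 counts in KD and 16, 47 and 48 in NC (log2 fold change -1.90, SE 0.464, edgeR adjusted p = 7.57e-04; -3.11 on the leukocyte-gene scale). Its reads can be shared with the near-identical copy ANXA8L1, which had 8, 4 and 6 counts in KD and 20, 6 and 20 in NC, so its level is uncertain. ANXA9, an atypical annexin, had 2.59, 3.24 and 2.51 CPM in KD, against 3.98, 3.98 and 4.21 CPM in NC (log2 fold change -0.55, SE 0.145, edgeR adjusted p = 0.00155; -1.76 on the leukocyte-gene scale). Of all tested genes, 41.3% had every KD library below every NC library. The gastric annexin ANXA10, with 13, 10 and 2 counts in KD and 2, 3 and 5 in NC, and the intestinal ANXA13, with 10, 9 and 11 counts in KD and 6, 7 and 9 in NC, were not tested for low counts. The epithelial markers in the same libraries summed to at most 15.6 CPM in KD and at least 674 CPM in NC; their part in these falls was not tested.

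**Figure D2:**
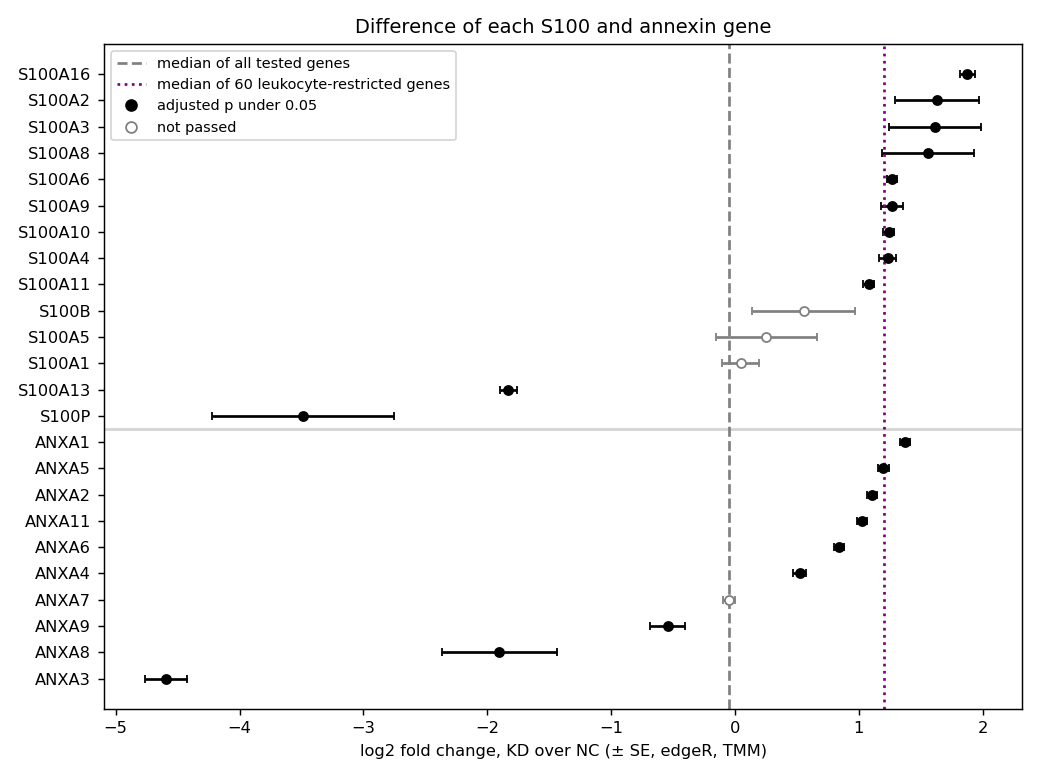
Log2 fold change, KD over NC, of the 24 tested members with its SE (edgeR, TMM scale), S100 genes above and annexins below the grey line; filled points passed an adjusted p of 0.05. The dashed line is the median of all tested genes (-0.05) and the dotted line that of 60 leukocyte-restricted genes (1.20): S100A9, S100A6, S100A10, S100A4 and ANXA5 lie at the dotted line, S100A16 to its right, and ANXA3 farthest left at -4.59.

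S100A11, S100A6 and S100A10 held the 3 largest shares of the S100 family in both groups, and ANXA5 the largest share of the annexin family. The order behind ANXA5 differed by RPKM, with ANXA7 above ANXA2 in each NC library and below it in each KD library. By counts, which do not allow for exon length, ANXA2 was above ANXA7 in every library. By summed RPKM, S100A11 made up 60.2% ± 0.330 of the S100 family in KD and 61.8% ± 1.07 in NC (SD, n = 3 each), S100A6 19.8% ± 0.201 in KD and 17.8% ± 0.654 in NC, and S100A10 11.5% ± 0.309 in KD and 10.5% ± 0.171 in NC. The share of S100A16 was 2.50% ± 0.120 in KD and 1.48% ± 0.154 in NC, and that of S100A13 0.377% ± 0.0138 in KD and 2.91% ± 0.102 in NC. Of the annexin family, ANXA5 made up 68.0% ± 0.280 in KD and 62.7% ± 0.693 in NC, ANXA1 11.1% ± 0.335 in KD and 9.03% ± 0.228 in NC, and ANXA7 4.11% ± 0.190 in KD and 8.99% ± 0.498 in NC. Exon length in the table is the union of all annotated exons, 11574 bases for ANXA2 and 11060 for ANXA4, so that RPKM is low for genes with many alternative exons. These shares are a description.

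**Figure D3:**
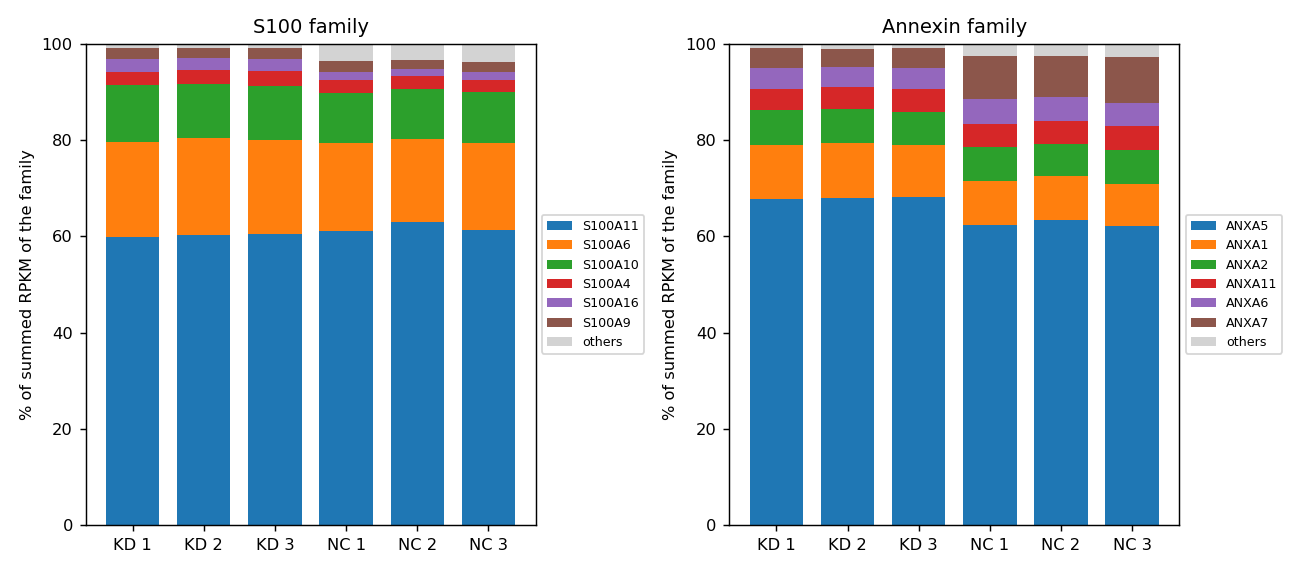
Share of each member in the summed RPKM of the S100 family (left) and of the annexin family (right), one bar per library, KD bars left of NC bars. S100A11 (60.2% in KD and 61.8% in NC) and ANXA5 (68.0% in KD and 62.7% in NC) made up most of their family in every library.

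Ratios between members within a library do not depend on the scale. For 7 pairs, of which S100A10 with ANXA2, S100A11 with ANXA1 and S100A9 with S100A8 are known complexes, the log2 ratio of counts was compared between KD and NC by an exact permutation test, two-sided, in which 3 libraries against 3 cannot go below p = 0.1. The ratio of S100A10 to ANXA2 was -1.71 ± 0.0400 in KD and -1.84 ± 0.0549 in NC (SD, n = 3 each), a difference of 0.13 (exact p = 0.1, adjusted over the 7 pairs 0.175). S100A11 to ANXA1 was 0.78 ± 0.0691 in KD and 1.08 ± 0.0477 in NC, a difference of -0.30 with the same exact p and adjusted p. ANXA1 to ANXA2 differed by 0.27 and ANXA5 to ANXA6 by 0.36, with the same values of exact p and adjusted p. In these 4 pairs the groups did not overlap, and none could pass at this number of libraries. S100A9 to S100A8 (-0.36, exact p = 0.5), S100A12 to S100A8 (-0.50, exact p = 0.6) and S100A6 to S100A4 (0.04, exact p = 0.5) had overlapping groups.

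Members differed in direction within one stretch of chromosome 1. The table places 16 members on that chromosome, 13 of them in the 274186 bases from S100A9 to S100A1, with 10 other annotated genes between them. On GRCh38, S100A9 lies at chr1:153357854-153361023 on the plus strand, S100A16 at chr1:153606886-153613145 and S100A13 at chr1:153618787-153631360, both on the minus strand. The annexin genes are spread over the genome, with ANXA1 at chr9:73151865-73170393, ANXA2 at chr15:60347134-60402883, ANXA3 at chr4:78551747-78610451 and ANXA5 at chr4:121667946-121696995. Of the 13 tested genes of that stretch, 3 were not S100 genes. S100A9, S100A8, S100A6, S100A4, S100A3, S100A2 and S100A16 rose on the scale of all genes. On the leukocyte-gene scale only S100A16 among these 7 was called higher. S100A13, whose nearest exon lies 5641 bases from S100A16, fell. The member S100A14, not tested for low counts, lies between S100A16 and S100A13. S100A5 and S100A1, within the same stretch, were at 0.25 and 0.05 and did not pass.

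**Figure D4:**
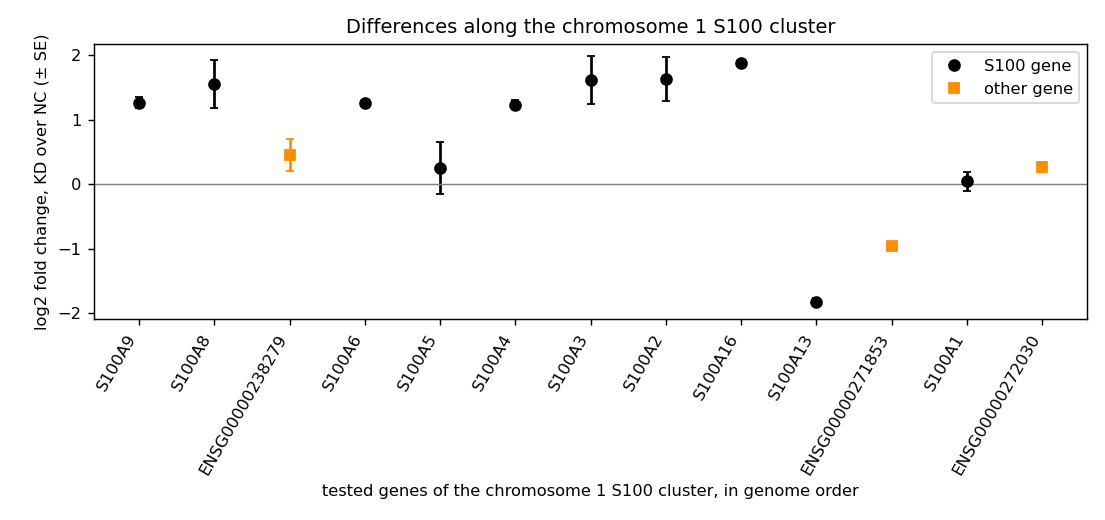
Log2 fold change, KD over NC, with its SE (edgeR, TMM scale), of the 13 tested genes of the chromosome 1 S100 cluster in genome order; circles are S100 genes and squares are other genes. S100A16 (1.88) and S100A13 (-1.83) are the highest and the lowest point and lie next to each other among the tested genes.

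Of the tested genes that follow each other on the chromosome 1 stretch, S100A16 and S100A13 differed most. The start regions of 5 members are shown, namely S100A16, S100A13, the danger signal S100A9, and the annexins with the largest rise and fall (ANXA1 and ANXA3). Each runs from 250 bases before to 50 after the RefSeq gene start on GRCh38.p14, 5′ to 3′ on the gene's strand, and capitals mark the motifs listed after them. S100A16 is at chr1:153613088-153613387, minus strand; S100A13 at chr1:153634312-153634611, minus strand. The S100A13 start in RefSeq lies upstream of the first base that the deposited table gives for the gene. S100A9 is at chr1:153357604-153357903, plus strand, ANXA1 at chr9:73151615-73151914, plus strand, and ANXA3 at chr4:78551520-78551819, plus strand.
S100A16: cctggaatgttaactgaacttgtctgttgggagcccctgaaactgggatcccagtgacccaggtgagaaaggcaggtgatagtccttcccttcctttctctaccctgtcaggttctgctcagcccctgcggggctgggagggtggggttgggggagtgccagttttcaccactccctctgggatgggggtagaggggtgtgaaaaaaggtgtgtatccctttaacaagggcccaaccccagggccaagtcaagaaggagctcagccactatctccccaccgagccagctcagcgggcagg
S100A13: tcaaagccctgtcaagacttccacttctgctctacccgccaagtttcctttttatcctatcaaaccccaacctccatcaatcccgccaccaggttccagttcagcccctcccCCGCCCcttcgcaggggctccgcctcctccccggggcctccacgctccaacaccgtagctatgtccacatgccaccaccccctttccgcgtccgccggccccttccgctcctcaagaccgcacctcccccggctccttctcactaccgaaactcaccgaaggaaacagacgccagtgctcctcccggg
S100A9: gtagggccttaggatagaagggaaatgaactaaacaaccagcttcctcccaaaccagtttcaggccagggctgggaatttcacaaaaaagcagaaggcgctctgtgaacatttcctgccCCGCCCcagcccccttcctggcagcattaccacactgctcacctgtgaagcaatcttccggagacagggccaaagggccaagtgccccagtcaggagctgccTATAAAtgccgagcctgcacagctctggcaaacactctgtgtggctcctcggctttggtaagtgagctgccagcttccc
ANXA1: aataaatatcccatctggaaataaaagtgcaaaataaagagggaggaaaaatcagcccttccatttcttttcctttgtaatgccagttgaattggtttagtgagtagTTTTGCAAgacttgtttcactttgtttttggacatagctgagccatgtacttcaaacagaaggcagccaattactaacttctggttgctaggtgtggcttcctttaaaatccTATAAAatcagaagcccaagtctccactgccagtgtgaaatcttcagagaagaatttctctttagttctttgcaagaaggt
ANXA3: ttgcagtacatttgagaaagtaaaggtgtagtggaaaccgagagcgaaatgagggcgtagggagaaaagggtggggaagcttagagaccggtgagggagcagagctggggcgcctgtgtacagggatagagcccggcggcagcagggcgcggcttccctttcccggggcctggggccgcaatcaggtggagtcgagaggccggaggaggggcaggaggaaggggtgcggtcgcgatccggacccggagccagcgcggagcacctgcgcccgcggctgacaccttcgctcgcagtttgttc

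RefSeq start regions were matched for 28 of the 31 members. Motifs were searched on both strands in these 300 bases and in the 35116 start regions of all genes. The TATA box TATAAA was found in 11 of 28 members (39.3%) and in 11.5% of all regions, S100A9 and ANXA1 among them. The GC box GGGCGG was found in 11 of 28 members (39.3%) and in 45.0% of all regions, among them S100A9 and S100A13. The C/EBP core TTGCNNAA was found in 5 of 28 (17.9%), ANXA1 and S100A11 included, and in 10.5% of all regions; the AP-1 site TGANTCA in 4 of 28 (14.3%), namely S100A12, S100A3, S100A2 and ANXA2, and in 7.71% of all regions; and the ETS core AGGAAGT in ANXA4 and S100P and in 8.24% of all regions. None of these letters stood in the shown regions of S100A16 and ANXA3. The regions also differed in CpG number, with 3 in S100A16 and 19 in S100A13, 0 in ANXA1 and 25 in ANXA3, against a median of 14 over all regions. These matches describe the sequence and say nothing of use by a factor.

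Receptors and partners of the families were described from lists chosen with earlier results of these data known. For comparison, 36.2% of all tested genes were called higher and 40.3% lower, and on the leukocyte-gene scale 3.34% higher and 83.7% lower. Of 8 receptors of S100A8 and S100A9, 4 were higher and 2 lower, with a median log2 fold change of 0.43; levelled on leukocyte genes, 3 were higher and 5 lower. Those with the smallest p were ALCAM, CD36 and MCAM, all past the edgeR threshold on either scale. ALCAM had 842 ± 10.8 CPM in KD and 261 ± 4.27 CPM in NC (log2 fold change 1.69, and 0.47 on the leukocyte-gene scale). CD36 had 37.9 ± 1.58 CPM in KD and 13.1 ± 0.709 CPM in NC (1.54, and 0.32). MCAM had 0.441 ± 0.0784 CPM in KD and 8.81 ± 0.326 CPM in NC (-4.31, and -5.53). TLR4, the main innate receptor for S100A8 and S100A9, rose (1.42, SE 0.089, edgeR adjusted p = 2.06e-13). On the leukocyte-gene scale TLR4 was at 0.20 (edgeR adjusted p = 0.0408). AGER, the other receptor, was at -0.29 (SE 0.163, adjusted p = 0.110) and was called lower on the leukocyte-gene scale (-1.51, adjusted p = 5.43e-09). The formyl peptide receptors, through which ANXA1 acts, were close to 0 in all libraries, with FPR1 at 0 to 6 counts in KD and 0 to 4 in NC, and were not tested.

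A list of 8 genes held plasminogen and membrane-repair partners of ANXA2 and S100A10 and also the chromatin factor HLTF. Of these, 6 were higher and 2 lower, HLTF among the lower, with a median log2 fold change of 1.17. Levelled on leukocyte genes, 2 were higher and 4 lower. PLAUR, the urokinase receptor, rose to 2437 ± 53.9 CPM in KD, against 947 ± 54.0 CPM in NC (log2 fold change 1.36, edgeR adjusted p = 1.95e-18). On the leukocyte-gene scale PLAUR was at 0.14 (edgeR adjusted p = 0.0123). Urokinase itself, PLAU, rose too (1.76, SE 0.065, adjusted p = 5.82e-18), and HLTF fell (-2.42, SE 0.055, adjusted p = 4.17e-22). On the leukocyte-gene scale PLAU was at 0.54 and HLTF at -3.64. Among 11 tested intracellular binding partners 5 were higher and 5 lower, with a median log2 fold change of 0.08. Levelled on leukocyte genes, 0 were higher and 11 lower. The shares over all tested genes were 36.2% higher and 40.3% lower, and levelled on leukocyte genes 3.34% higher and 83.7% lower. MYH9, the myosin bound by S100A4, rose (1.02, SE 0.051), as did the scaffold IQGAP1 (1.05, SE 0.043), though levelled on leukocyte genes they were at -0.20 and -0.17, both past the edgeR threshold on either scale. Among the lower partners were CACYBP (-0.43, SE 0.042, edgeR adjusted p = 1.35e-09) and NPM1 (-0.66, SE 0.049, edgeR adjusted p = 7.09e-12). Levelled on leukocyte genes, CACYBP was at -1.65 and NPM1 at -1.88.

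Other calcium-binding families divided between directions, as all tested genes did (36.2% higher and 40.3% lower). Levelled on leukocyte genes, 3.34% of all tested genes were higher and 83.7% lower. Of 24 other EF-hand proteins 13 were higher and 9 lower on the scale of all genes (median 0.29); levelled on leukocyte genes, 1 was higher and 22 were lower. The 3 with the smallest p were the plastins, which bundle actin. LCP1, the leukocyte plastin, rose (1.44, SE 0.045, edgeR adjusted p = 2.21e-19). PLS3 (-3.64, SE 0.049, edgeR adjusted p = 1.59e-26) and PLS1 (-4.37, SE 0.108, edgeR adjusted p = 2.10e-21), the plastins of other tissues, fell. On the leukocyte-gene scale LCP1 was at 0.22, PLS3 at -4.86 and PLS1 at -5.59. Of 16 copines, extended synaptotagmins, ferlins and related membrane binders 8 were higher and 4 lower (median 0.16); levelled on leukocyte genes, 2 were higher and 13 lower. SYTL3 (1.95, SE 0.061), MYOF (1.57, SE 0.043) and CPNE2 (0.83, SE 0.077) had the smallest p among these and rose on the scale of all genes. On the leukocyte-gene scale SYTL3 was at 0.73, MYOF at 0.35 and CPNE2 at -0.39. Of 13 fused S100-type and cornified envelope genes, HRNR (1.55) and TCHH (0.47) alone passed the count filter and rose relative to all genes; on the leukocyte-gene scale HRNR did not pass (0.33, adjusted p = 0.292) and TCHH was called lower (-0.75). The median S100 gene, at 1.24, lay above the median of each of these lists with 5 or more tested genes, which was not tested.

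**Figure D5:**
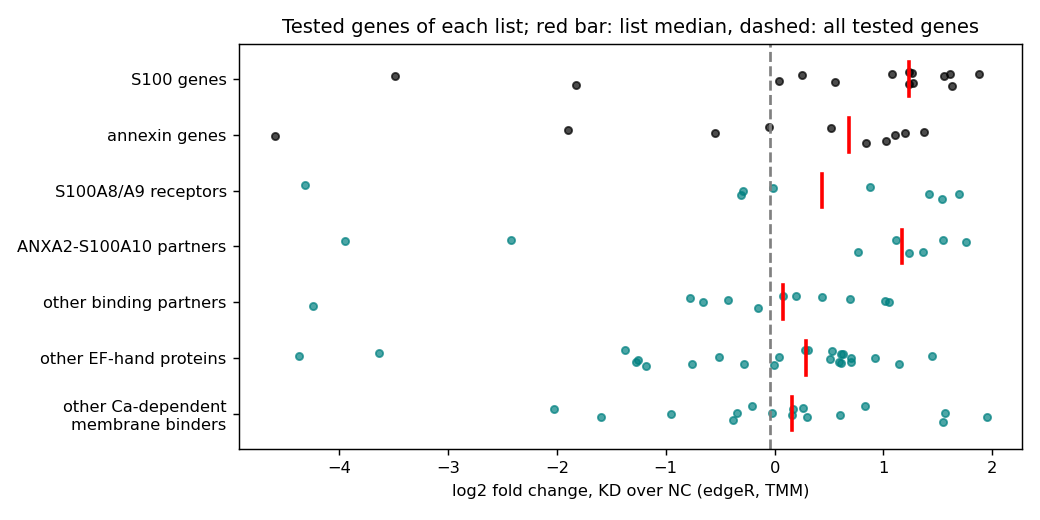
Log2 fold change, KD over NC (edgeR, TMM scale), of the tested S100 and annexin genes (black) and of 5 lists of receptors, partners and other calcium-binding proteins (teal); each point is a gene, red bars are list medians and the dashed line is the median of all tested genes. List medians run from 0.08 to 1.24; levelled on leukocyte genes the median of all tested genes is -1.27.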

How the data were processed

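RNA was measured in 6 libraries, 3 labelled KD and 3 labelled NC. Reads had been cleaned with fastp 0.23.0 and the genome build was GRCh38, per the submitters' processing notes; which aligner, counting program, annotation release and strand setting served is unknown (not given in the sources used here). Raw counts, whole numbers per gene with no scaling, were deposited by the authors beside exon positions and exon length in bases. Total counts were 37628972 to 42970216 per library. Even numbers made up 67.8% to 70.3% of the counts from 1 to 20 and 50.2% to 51.4% of the counts over 1000; counts divided by 2 are therefore one alternative, and intervals and floors cover counting error only. Libraries of a group differed beyond sampling noise, with chi-square over its degrees of freedom at 3.24 to 6.46.

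Tests used edgeR 4.0.16 in R 4.3.3 (quasi-likelihood, robust, TMM, filterByExpr, leaving 21905 genes) with Benjamini-Hochberg adjustment over all tested genes and a threshold of 0.05, two-sided. An SE is obtained as the absolute log2 fold change over the root of the F statistic. CPM use TMM unless library size is named, and RPKM divide them by exon kilobases. The steps were tested on simulated data. Members, lists, alternatives and the 60 leukocyte genes were chosen with earlier results of these data known. All members are named. Of each partner list, the 3 genes with the smallest p are named. AGER, TLR4, FPR1, PLAT, CACYBP and NPM1 are named too, chosen after their values were seen. A gene that this rule names among the intracellular partners is not reported here. Alternatives were DESeq2 1.42.0, other scalings and filters, counts divided by 2, a replicate block and leaving out each library. Promoters are from RefSeq tables of GRCh38.p14. Ratios were tested with scipy 1.17.1, and figures drawn with matplotlib 3.10.9 (Python 3.11.15).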

Additional observations from a re-analysis of the deposited data

How the results depend on the processing

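The leukocyte-gene scale was the alternative that changed most calls. On it 1 S100 gene was higher and 5 lower, 1 annexin was higher and 8 lower, and of all tested genes 732 were higher and 18344 lower. Log2 fold changes that turned sign there were S100A11 (-0.14), S100A5 (-0.96), S100A1 (-1.18), ANXA11 (-0.20), ANXA2 (-0.11), ANXA4 (-0.70), S100B (-0.66), ANXA5 (-0.023) and ANXA6 (-0.38), and 7 more members no longer passed. S100A1 also turned with library sizes alone (-0.14) and without NC replicate 3 (range -0.044 to 0.137 over the libraries left out), and ANXA7 without KD replicate 2 (range -0.083 to 0.0047); neither passed the test on the scale of all genes, and the cause was not tested. With counts divided by 2, and with a mean of at least 1 CPM, 1 S100 gene was lower in place of 2, since S100P was no longer tested, and 2 annexins were lower in place of 3; with a mean of at least 1 CPM, 6 of 8 tested S100 genes were higher. Leaving out each library gave 9 higher and 2 lower S100 genes every time, 6 to 7 higher and 3 lower annexins (ANXA10 entered the test and rose without KD replicate 3), and ratio differences of -1.06 to 0.32 for S100A12 to S100A8 and -0.012 to 0.080 for S100A6 to S100A4. DESeq2, DESeq2 size factors, no filter and the replicate block kept the direction and call of each of the 24 tested members. Same-numbered libraries did not deviate together (correlations 0.12, 0.04 and -0.24). With 3 libraries per group this cannot exclude that the numbers pair them. With the replicate block the S100 genes were 9 higher and 2 lower and the annexins 6 higher and 3 lower. S100A8, S100A12, S100A2, S100A3, S100A5, S100B, S100P and ANXA8 rest on fewer than 50 counts in each library, which limits what can be said of them.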
